A study of Mus musculus with 30 samples.

Results

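Messenger RNA of 9 CXC chemokine ligands, *Cxcl1*, *Cxcl2*, *Cxcl3*, *Cxcl5*, *Cxcl9*, *Cxcl10*, *Cxcl12*, *Cxcl14* and *Cxcl16*, was followed through chemically induced colitis in the mouse colon. The genes were taken by name from the 46078 genes of the count table, and 9 of 9 were among the 16261 genes with enough counts to be tested. All mice were C57BL/6J WT, both sexes were used, and each of the 6 groups had 5 mice with 1 library per mouse. Vehicle-treated mice received saline i.p. and were killed at 9 weeks. AOM/DSS-treated mice received 10 mg/kg of the carcinogen azoxymethane (AOM) once i.p. and then 3 cycles of 2.5% dextran sodium sulfate (DSS), an irritant of the gut lining, in the drinking water. They were killed at 9 or at 15 weeks. Mice were 5 to 10 weeks old when treatment began, so ages at sampling differed between the time points. No vehicle-treated mice of 15 weeks were analysed, so treatment and age cannot be told apart at that time, and both AOM/DSS time points are set against the same vehicle-treated mice. The tissue was the epithelial layer scraped from the colon, and the summed level of 7 colon epithelium markers was 8109 to 26299 CPM (counts scaled to a common library size and read as counts per 1e+06) in the 30 libraries, while markers of immune cells, fibroblasts and muscle were also present.

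CXC chemokines are small secreted proteins that guide leukocytes along a gradient through G protein-coupled receptors. CXCL1, CXCL2, CXCL3 and CXCL5 attract neutrophils through CXCR2 and are classical products of NF-kB signaling after IL-1 or TNF. CXCL9 and CXCL10 are interferon-inducible and attract activated T cells and NK cells through CXCR3. CXCL12 is made mainly by stromal cells and acts through CXCR4 and the scavenging receptor ACKR3, CXCL14 is a largely constitutive epithelial and stromal chemokine, and CXCL16 is made as a transmembrane protein that binds CXCR6 and is shed by ADAM10.

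The 4 neutrophil attractants lie on the plus strand of chromosome 5 within 146579 bases of each other (GRCm38): *Cxcl5* (ENSMUSG00000029371) at chr5:90759360-90761624, *Cxcl3* (ENSMUSG00000029379) at chr5:90786103-90789600, *Cxcl1* (ENSMUSG00000029380) at chr5:90891241-90893115 and *Cxcl2* (ENSMUSG00000058427) at chr5:90903871-90905938. *Cxcl9* (ENSMUSG00000029417) at chr5:92321347-92328079 and *Cxcl10* (ENSMUSG00000034855) at chr5:92346638-92348889 are neighbors on the minus strand, 18558 bases apart. The other members are single: *Cxcl12* (ENSMUSG00000061353) at chr6:117168535-117181367 on the plus strand, *Cxcl14* (ENSMUSG00000021508) at chr13:56288647-56296551 and *Cxcl16* (ENSMUSG00000018920) at chr11:70453983-70459984, both on the minus strand. *Cxcl10* lies over its 2252 bases inside *Art3* on the opposite strand, and *Cxcl16* shares 552 bases with *Zmynd15*. The libraries were stranded but the strand setting of the counting is not given in the sources used here. *Art3* had 0 to 528 counts per library (median 7) and *Zmynd15* 3 to 60 (median 18).

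Promoter sequence is shown for *Cxcl1*, *Cxcl2*, *Cxcl3* and *Cxcl10*, 4 of the genes that were higher at 9 weeks, because letters known to be read by NF-kB stand close to their starts. RefSeq promoters (GRCm38.p6) were matched for 7 of 9 members and were not for *Cxcl5* and *Cxcl16*. Capitals mark matches on either strand to GGGNNNTTC, the start of a common NF-kB form, the longest run of letters shared by the first 3 genes, and in *Cxcl10* also the match to GAAANNGAA, most of an interferon-stimulated response element (ISRE). The windows are chr5:90891115-90891214 (*Cxcl1*, plus), chr5:90903769-90903868 (*Cxcl2*, plus), chr5:90785971-90786070 (*Cxcl3*, plus) and chr5:92348970-92349109 (*Cxcl10*, minus), each written 5′ to 3′ on the strand of its gene.
Cxcl1: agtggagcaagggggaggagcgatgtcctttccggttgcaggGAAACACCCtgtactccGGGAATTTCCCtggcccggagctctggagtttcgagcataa
Cxcl2: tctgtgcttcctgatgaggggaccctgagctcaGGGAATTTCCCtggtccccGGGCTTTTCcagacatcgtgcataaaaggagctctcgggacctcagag
Cxcl3: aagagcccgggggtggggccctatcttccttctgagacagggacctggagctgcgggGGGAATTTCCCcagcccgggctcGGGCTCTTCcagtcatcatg
Cxcl10: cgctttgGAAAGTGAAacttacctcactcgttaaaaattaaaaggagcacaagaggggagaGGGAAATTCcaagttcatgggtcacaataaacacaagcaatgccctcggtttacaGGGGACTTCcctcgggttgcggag

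*Cxcl1*, *Cxcl2* and *Cxcl3* shared a run of 11 letters, GGGAATTTCCC, beginning 71, 97 and 73 bases before the RefSeq start. Those letters were found on either strand in the 250 bases before the start of 14 of 32851 RefSeq promoters (0.0426%). GGGNNNTTC, which overlaps that run on both strands, was found in 11.8% of promoters and in 5 of the 7 members with a sequence, *Cxcl9* being the fifth. GAAANNGAA was found in 7.13% of promoters and in *Cxcl9*, *Cxcl10* and *Cxcl14*. The shared run and the letters of GGGNNNTTC were chosen after the windows had been read, and a match describes letters and is not a measured binding site.

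Library totals ran from 9265804 to 30806392 counts (median 24697064). Replicates differed by more than counting noise in each of 60 within-group pairs. A pair of libraries stood apart in ways that touch the ligands. Male vehicle replicate 1 had 5287 CPM of 6 smooth muscle markers, where the other 29 libraries had at most 206, and 221 CPM of 6 squamous epithelium markers, where the others had at most 8.08. Female AOM/DSS 9 weeks replicate 5 was the lowest of its 5 libraries for 8 of 9 members. It was also the lowest of its group for the summed markers of neutrophils, macrophages, B cells, mesenchyme, smooth muscle and endothelium, and the highest for colon epithelium (26299 CPM) and for T and NK cells (29.8 CPM). Comparisons with the sexes averaged were repeated without these 2 libraries, and values that changed are given beside the result.

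Levels of different genes were compared in TPM (transcript abundance per library of fixed size), which corrects for gene length. With vehicle, *Cxcl16* had the highest median (2.28 TPM over 10 libraries), followed by *Cxcl12* (1.46 TPM) and *Cxcl10* (0.379 TPM). *Cxcl14* (0.175 TPM), *Cxcl5* (0.0927 TPM), *Cxcl9* (0.0836 TPM) and *Cxcl1* (0.0373 TPM) were lower, and the medians of *Cxcl2* and *Cxcl3* were 0. The order was firm at the top, with *Cxcl16* above *Cxcl12* in 8 of 10 libraries and *Cxcl12* above *Cxcl10* in 9, and loose between *Cxcl5* and *Cxcl9*, where 6 of 10 libraries kept it. At 9 weeks of AOM/DSS *Cxcl16* was still highest (7.73 TPM), now followed by *Cxcl9* (5.39 TPM), *Cxcl10* (5.25 TPM), *Cxcl2* (3.01 TPM) and *Cxcl5* (2.86 TPM). The medians of *Cxcl9* and *Cxcl10* do not give their order within libraries, since *Cxcl9* was above *Cxcl10* in 2 of 10. *Cxcl12* (1.95 TPM), *Cxcl14* (1.87 TPM), *Cxcl3* (1.28 TPM) and *Cxcl1* (1.13 TPM) came last, each above the next in 6 or 7 of 10 libraries. At 15 weeks the leading members were *Cxcl16* (2.69 TPM), *Cxcl9* (1.04 TPM), *Cxcl10* (0.876 TPM) and *Cxcl12* (0.613 TPM), with *Cxcl3* lowest at 0.00261 TPM.

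**Figure D1:**
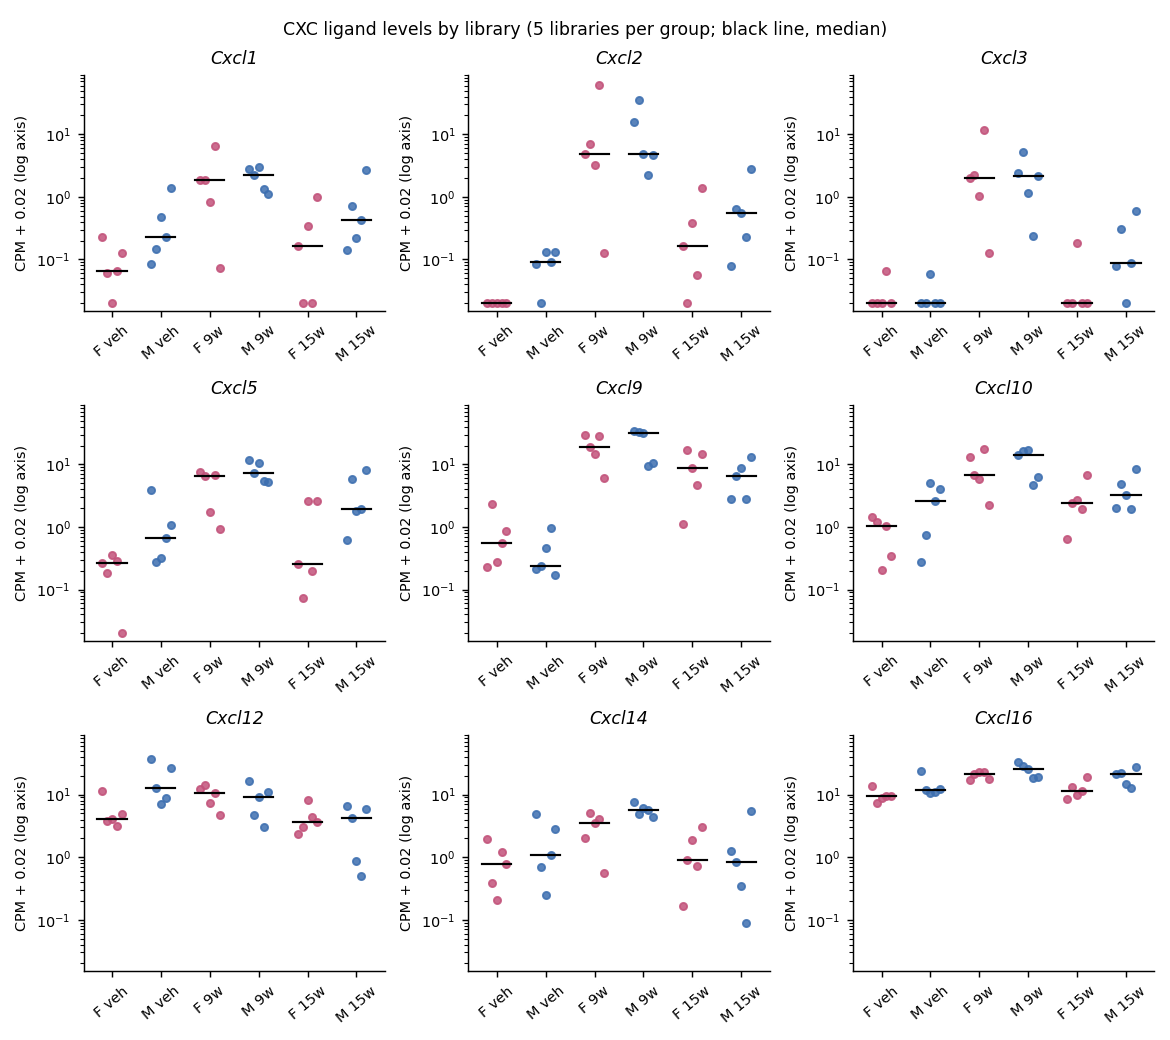
Level of each of the 9 ligands in CPM plus 0.02 (log axis) in every library, 1 panel per gene and 5 points per group, with females in pink, males in blue and a black line at the group median. The *Cxcl3* and *Cxcl9* points of the 9-week groups lie above all vehicle points. *Cxcl12* overlaps between 9 weeks and vehicle in both sexes, while its 15-week males lie below all vehicle-treated males. The female of replicate 5 at 9 weeks lies at the bottom of its group in 8 of 9 panels.

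*Cxcl16* held a median of 45.4% of the summed TPM of the 9 members with vehicle, 22.5% at 9 weeks and 43.3% at 15 weeks. *Cxcl12* held 22.9%, 7.14% and 5.06%, and *Cxcl9* held 2.04%, 15.4% and 13.5%. Shares sum to the whole, so a lower share of 1 gene need not mean less of its transcript. Within the 4 neutrophil attractants, *Cxcl2* was the largest in 6 and *Cxcl5* in 4 of 10 libraries at 9 weeks, with median shares of 40.8% and 31.2%. At 15 weeks *Cxcl5* was the largest in 9 of the 9 libraries with any TPM for these genes. Its median share was 75.0%, and *Cxcl2* held 12.9%. With vehicle, where these genes were low, *Cxcl5* was also the largest in 6 of 10 libraries and *Cxcl1* in 4, with median shares of 67.6% and 29.9%.

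The first comparison asks which ligands differ from vehicle at the earlier time point of colitis. At 9 weeks 8 of the 9 members were differentially expressed genes (DEGs) with the sexes averaged, all of them higher than with vehicle, where a DEG needed an adjusted p under 0.05 over all genes tested, a log2 fold change beyond 0.4 and a mean FPKM of at least 1 on either side. Of all genes tested 8.29% were DEGs in this comparison, 5.51% higher and 2.78% lower. The exception was *Cxcl12*. Log2 fold changes are given here ± their standard error. The median log2 fold change of the members was 3.47, against -0.02 for all genes tested, and it was the same with *Cxcl2* and *Cxcl3* set at their bounds. Libraries of 9 weeks and of vehicle did not overlap for 2 members, *Cxcl3* and *Cxcl9*, against 1.09% of all genes tested. These are bulk libraries of a scraped layer, in which more RNA per cell and more cells of a type that makes the ligand cannot be told apart.

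**Figure D2:**
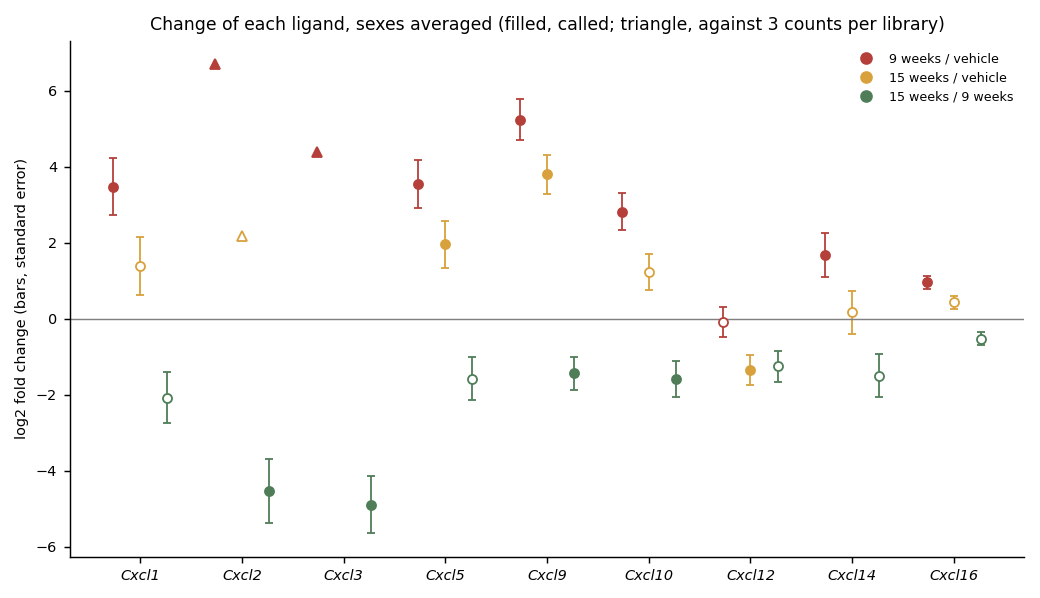
Log2 fold change of each ligand with its standard error for 9 weeks against vehicle, 15 weeks against vehicle and 15 against 9 weeks, sexes averaged; filled points are DEGs, and triangles give the log2 of the mean CPM over a floor of 3 counts per library for *Cxcl2* and *Cxcl3* against vehicle. At 9 weeks 8 of 9 ligands are filled and above 0, and from 9 to 15 weeks all 9 lie below 0 with 4 filled. *Cxcl3* is not drawn for 15 weeks against vehicle.

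*Cxcl2*, a neutrophil attractant released early by macrophages and epithelium, showed the widest range of the family. In vehicle-treated females all 5 libraries had 0 counts, and vehicle-treated males had 0.0651, 0, 0.112, 0.0691 and 0.112 CPM in replicates 1 to 5, which is at most 3 counts. At 9 weeks females had 4.82, 7.02, 3.20, 61.3 and 0.108 CPM and males 15.4, 35.6, 4.79, 2.21 and 4.65 CPM. The 9-week and vehicle libraries did not overlap within either sex, but female replicate 5, with 2 counts, reached only the level of the vehicle-treated males. Over both sexes 3407 counts at 9 weeks stood against 10 counts with vehicle, a ratio per effective library size of 327 (95% exact Poisson interval 177.8 to 683, adjusted p = 1.19e-05). Such intervals and floors take the pooled counts as Poisson counts and leave out the spread between mice. No molecular identifiers are described for these libraries, so duplicate reads may be counted more than once. The intervals may then be too narrow even for counting error. The adjusted p printed beside such a ratio is from the edgeR test. In females alone the ratio has no upper limit, and the 9-week mean was at least 96.7-fold higher than with vehicle, taking 3 counts per library as the floor. Female replicate 4 held 1442 of the 1812 counts of the 9-week females, and without it the ratio over both sexes was 208 (interval 113 to 434) and the bound in females at least 23.9-fold.

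*Cxcl3*, its close relative, had 0 counts in 8 of 10 vehicle libraries and 1 count in each of the other two. After AOM/DSS, 9-week females had 1.95, 2.20, 1.02, 11.6 and 0.108 CPM and males 2.34, 5.24, 1.11, 0.215 and 2.15 CPM. All 10 libraries of 9 weeks were above all 10 vehicle libraries, the lowest again being female replicate 5. The summed counts were 687 against 2, a ratio of 330 with a wide interval of 91.0 to 2731 (adjusted p = 1.93e-06). Without female 9-week replicate 4 the ratio was 219, and without either vehicle library that holds a count it was 589 to 600.

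*Cxcl1*, the mouse keratinocyte-derived chemokine, was low throughout. Vehicle-treated females had 0.211, 0.0406, 0, 0.0442 and 0.107 CPM and males 0.0651, 0.128, 0.449, 0.207 and 1.34 CPM. At 9 weeks females had 1.86, 1.81, 0.808, 6.51 and 0.0538 CPM and males 2.76, 2.18, 2.99, 1.32 and 1.08 CPM. Male vehicle replicate 5 lay inside the 9-week range and female 9-week replicate 5 inside the vehicle range, so the groups overlapped in both sexes. The mean was 2.14 against 0.260 CPM (log2 fold change 3.47 ± 0.75, adjusted p = 0.00188), and without male vehicle replicate 5 the vehicle mean was 0.139 CPM.

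*Cxcl5* is known mainly as an epithelial product, and its source in these scrapes was not tested. With vehicle, females had 0.246, 0.162, 0.333, 0.265 and 0 CPM and males 3.90, 0.257, 0.299, 0.656 and 1.05 CPM. At 9 weeks females had 7.49, 6.59, 1.69, 6.72 and 0.914 CPM and males 11.9, 7.38, 10.5, 5.47 and 5.17 CPM. Groups did not overlap within either sex, and the high vehicle value came from male replicate 1, the library rich in muscle and squamous markers. The mean was 6.38 against 0.717 CPM (log2 fold change 3.53 ± 0.63, adjusted p = 0.000251). Without male vehicle replicate 1 the vehicle mean was 0.363 CPM, and without male vehicle replicate 1 and female 9-week replicate 5 the log2 fold change was 4.22. *Cxcl1*, *Cxcl2*, *Cxcl3*, *Cxcl5*, *Cxcl9*, *Cxcl10* and *Cxcl16* remained DEGs at 9 weeks in each of 20 fits that left out 1 library.

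*Cxcl9*, the CXCR3 ligand that depends most on interferon gamma, had the smallest adjusted p of the family. Vehicle-treated females had 0.211, 2.31, 0.259, 0.530 and 0.853 CPM and males 0.195, 0.214, 0.449, 0.933 and 0.149 CPM. Females of 9 weeks had 29.8, 18.6, 14.5, 28.5 and 6.02 CPM and males 34.4, 32.9, 32.0, 9.55 and 10.5 CPM. The lowest 9-week library, female replicate 5, was above the highest vehicle library, female replicate 2. The mean was 21.7 against 0.611 CPM (log2 fold change 5.23 ± 0.53, adjusted p = 1.26e-07).

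*Cxcl10*, which responds to type I interferon and TNF as well as to interferon gamma, started from a higher and more scattered level. Vehicle-treated females had 0.185 to 1.44 CPM, and males had 0.260, 0.728, 4.98, 2.56 and 4.07 CPM. In the 9-week groups females had 13.1, 6.72, 5.90, 17.9 and 2.26 CPM and males 14.3, 16.3, 17.0, 4.61 and 6.25 CPM. Groups did not overlap in females, while in males the highest vehicle library was above the lowest 9-week library. The mean was 10.4 against 1.67 CPM (log2 fold change 2.81 ± 0.49, adjusted p = 0.000207).

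*Cxcl16* changed least among the DEGs and varied least between mice. Vehicle-treated females had 13.8, 7.34, 8.77, 9.45 and 9.49 CPM and males 23.8, 11.8, 10.7, 10.9 and 12.4 CPM. At 9 weeks females had 17.2, 21.4, 23.0, 22.9 and 17.6 CPM and males 33.0, 28.6, 26.1, 18.7 and 18.9 CPM. Females did not overlap, and in males only vehicle replicate 1 reached the 9-week range. The mean was 22.7 against 11.8 CPM (log2 fold change 0.95 ± 0.17, adjusted p = 0.000283).

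*Cxcl14* was 1.99, 5.12, 3.55, 3.998 and 0.538 CPM in females at 9 weeks and 4.31 to 7.48 CPM in males, against 0.185 to 1.90 CPM in vehicle-treated females and 4.88, 0.685, 0.225, 1.07 and 2.76 CPM in vehicle-treated males. Female 9-week replicate 5 and male vehicle replicate 1 made the groups overlap. The mean was 4.37 against 1.40 CPM (log2 fold change 1.67 ± 0.57, adjusted p = 0.0457). This was the least secure of the 8 calls. It was kept in 4 of the 20 fits that left out 1 library, those without vehicle replicate 1 of either sex or 9-week replicate 5 of either sex (adjusted p 0.0173 to 0.0819 over the 20), and the adjusted p was 0.00789 without male vehicle replicate 1 and female 9-week replicate 5.

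*Cxcl12* did not pass the test at 9 weeks. Vehicle-treated females had 11.4, 3.81, 3.998, 3.14 and 4.80 CPM and males 36.5, 12.8, 7.15, 8.74 and 26.2 CPM. Females of 9 weeks had 12.1, 14.3, 7.34, 10.7 and 4.78 CPM and males 16.5, 4.72, 9.21, 3.04 and 10.9 CPM. Libraries of the groups overlapped in both sexes, and the log2 fold change was -0.10 ± 0.39 (adjusted p = 0.906) with means of 9.35 against 11.9 CPM. Its sign was not fixed: leaving out single libraries gave -0.27 to 0.14, and leaving out male vehicle replicate 1 and female 9-week replicate 5 gave 0.20.

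The spread between the 10 mice at 9 weeks differed widely among the members. The coefficient of variation was 141% for *Cxcl2*, 122.2% for *Cxcl3* and 83.0% for *Cxcl1*, from 46.2% to 56.1% for *Cxcl5*, *Cxcl9*, *Cxcl10*, *Cxcl12* and *Cxcl14*, and 22.8% for *Cxcl16*. The highest library of *Cxcl2* was 570 times its lowest, against 1.92 times for *Cxcl16*. Female 9-week replicate 4 was the highest of its group for *Cxcl1*, *Cxcl2*, *Cxcl3* and *Cxcl10*.

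Against the same vehicle-treated mice, 3 of 9 members were DEGs at 15 weeks: *Cxcl9* and *Cxcl5* were higher and *Cxcl12* was lower. Of all genes tested 7.35% were DEGs, 3.46% higher and 3.89% lower. The median log2 fold change of the members was 1.38, against -0.03 for all genes tested, and no member was free of overlap between the 15-week and vehicle libraries (0.24% of all genes tested were).

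*Cxcl9* stayed high. At 15 weeks females had 1.10, 17.0, 8.67, 4.67 and 14.8 CPM and males 2.79, 6.57, 8.73, 2.82 and 12.9 CPM. All males of 15 weeks were above all vehicle-treated males, and in females replicate 1 was below vehicle replicate 2. The mean was 8.01 CPM (log2 fold change 3.79 ± 0.51, adjusted p = 4.54e-05), and the call was kept in 20 of 20 fits that left out 1 library.

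*Cxcl5* was uneven between mice at 15 weeks, with 0.240, 0.0525, 2.57, 0.178 and 2.62 CPM in females and 0.593, 5.84, 1.77, 1.93 and 8.19 CPM in males. In females 3 libraries lay within the vehicle range and 2 above it. The mean was 2.40 CPM (log2 fold change 1.96 ± 0.62, adjusted p = 0.0303), and 16 of 20 fits that left out 1 library kept the call. It was lost without 15-week female replicate 3 or 5 or male replicate 2 or 5, with an adjusted p of up to 0.0654.

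*Cxcl12* was 2.30, 2.99, 8.07, 4.35 and 3.60 CPM in females at 15 weeks and 6.47, 4.16, 0.845, 0.482 and 5.79 CPM in males. All males of 15 weeks were below all vehicle-treated males, of which the lowest had 7.15 CPM, while the females overlapped. The mean was 3.91 against 11.9 CPM (log2 fold change -1.35 ± 0.40, adjusted p = 0.0238). The call was lost without vehicle replicate 1 of either sex (adjusted p of up to 0.0621), and without male vehicle replicate 1 and female 9-week replicate 5 the log2 fold change was -1.15 with an adjusted p of 0.0515. *Cxcl12* moved here with stromal markers: 3 of 8 mesenchyme markers were DEGs and lower at 15 weeks (*Lum*, log2 fold change -2.86; *Dcn*, -1.83; *Col3a1*, -1.70), as were 6 of 6 smooth muscle markers and 1 of 5 endothelial markers (*Pecam1*, -0.91). Most of those marker calls rested on male vehicle replicate 1: without it 0 of 6 smooth muscle markers and 1 of 8 mesenchyme markers (*Lum*) were DEGs, while *Pecam1* was kept. Smooth muscle markers then summed to 2.78 to 114.97 CPM with vehicle and 2.14 to 66.2 CPM at 15 weeks, and mesenchyme markers to 28.8 to 435 and 23.0 to 186 CPM, and no marker of the list was at 0 in all libraries of a group. The part of these cells in the *Cxcl12* result was not tested.

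The other members did not pass at 15 weeks. *Cxcl2* had 49 counts in females and 113 in males against 10 with vehicle (ratio 17.6, interval 9.32 to 37.4, adjusted p = 0.0234) but a mean FPKM under 1. Male replicate 5 held 81 of these counts, and without it the ratio was 10.1 (interval 5.21 to 21.8). *Cxcl10* was 3.47 against 1.67 CPM (log2 fold change 1.22 ± 0.48, adjusted p = 0.0736), and *Cxcl16* was 16.1 against 11.8 CPM (0.43 ± 0.17, adjusted p = 0.0805). Without the 2 libraries that stood apart *Cxcl16* passed (0.57, adjusted p = 0.0202). *Cxcl1* was 0.552 against 0.260 CPM (0.320 CPM at 15 weeks without male replicate 5; adjusted p = 0.201), *Cxcl14* 1.45 against 1.40 CPM (adjusted p = 0.869) and *Cxcl3* 30 counts against 2 (adjusted p = 0.117). Male 15-week replicate 5 was the highest of its group for 8 of 9 members and female 15-week replicate 5 for 6. Both were also the highest of their groups for the summed macrophage, mesenchyme and endothelial markers, and the part of those cells was not tested.

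From 9 to 15 weeks the log2 fold change of every member was negative, and 4 were lower DEGs: *Cxcl2*, *Cxcl3*, *Cxcl9* and *Cxcl10*. Of all genes tested 2.32% were DEGs, 0.418% higher and 1.91% lower. *Cxcl3* fell from a mean of 2.79 to 0.116 CPM (log2 fold change -4.89 ± 0.75, adjusted p = 0.00236) and *Cxcl2* from 13.9 to 0.608 CPM (-4.54 ± 0.84, adjusted p = 0.00883). Female 9-week replicate 4 was the highest library of both, and without it their 9-week means were 1.81 and 8.65 CPM; without male 15-week replicate 5 their 15-week means were 0.0638 and 0.368 CPM. *Cxcl10* fell from 10.4 to 3.47 CPM (-1.59 ± 0.47, adjusted p = 0.0455) and *Cxcl9* from 21.7 to 8.01 CPM (-1.44 ± 0.43, adjusted p = 0.0495). The range of 9 weeks overlapped that of 15 weeks for all 9 members (0.0123% of all genes tested did not overlap).

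The calls of *Cxcl2* and *Cxcl3* were kept in all 20 fits that left out 1 library, with adjusted p of 0.00127 to 0.0302 and 0.000246 to 0.00992. Those of *Cxcl9* and *Cxcl10* were kept in 5 of the 20 each, namely without 9-week female replicate 5, 9-week male replicate 4 or 5, or 15-week replicate 5 of either sex. The number of members called was 2 in 14 of the 20 fits. Leaving out female 9-week replicate 5 alone raised it to 9, and leaving out male 15-week replicate 5 alone raised it to 7. The 5 members that did not pass with all libraries had adjusted p of 0.0634 (*Cxcl12*), 0.0654 (*Cxcl1*), 0.0676 (*Cxcl16*), 0.0927 (*Cxcl5*) and 0.109 (*Cxcl14*), with log2 fold changes of -0.53 to -2.09.

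The sexes were then compared. At 9 weeks 7 of 9 members were higher DEGs in females (2.9% of all genes tested were DEGs, 2.42% higher and 0.48% lower) and 6 in males (7.31%, 4.42% higher and 2.88% lower). Groups did not overlap for 6 members in females, *Cxcl2*, *Cxcl3*, *Cxcl5*, *Cxcl9*, *Cxcl10* and *Cxcl16* (4.18% of all genes tested), and for 4 in males, *Cxcl2*, *Cxcl3*, *Cxcl5* and *Cxcl9* (10.3%). *Cxcl1* passed in females (log2 fold change 4.71 ± 1.16, adjusted p = 0.0169) and not in males (2.22 ± 0.95, adjusted p = 0.136), but the interaction of sex with treatment did not separate them (-2.49 ± 1.46, adjusted p = 0.718). *Cxcl9* was 4.56 ± 0.73 in females and 5.91 ± 0.78 in males, and *Cxcl10* was 3.41 ± 0.73 and 2.21 ± 0.67. In females the *Cxcl1* call was lost without vehicle replicate 2, 3 or 4 or 9-week replicate 4 (adjusted p of up to 0.0871), and that of *Cxcl3* without 9-week replicate 4, where its mean FPKM was under 1. In males the calls of *Cxcl5*, *Cxcl10* and *Cxcl16* were kept in 3, 4 and 3 of 10 fits that left out 1 library (adjusted p of up to 0.083, 0.0799 and 0.077), each of them without 9-week replicate 4 or 5. The number of members called in males was 3 without vehicle replicate 2 or 4 or without 9-week replicate 1, 2 or 3.

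**Figure D3:**
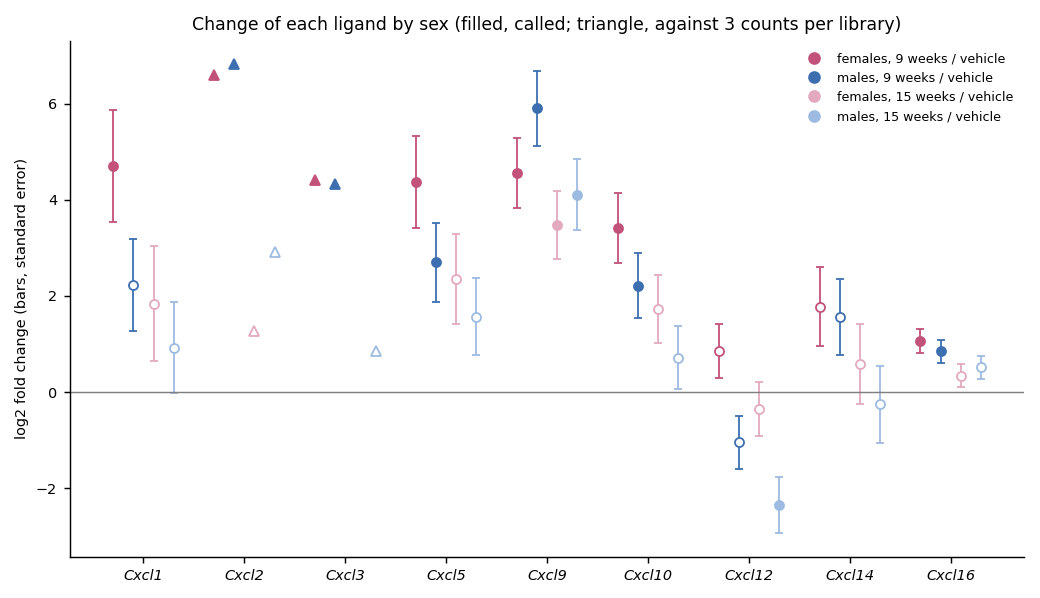
Log2 fold change of each ligand with its standard error in females (pink) and males (blue). Darker points are 9 weeks against vehicle and paler points are 15 weeks against vehicle. Filled points are DEGs and triangles mark values against the floor of 3 counts per library. *Cxcl3* of females at 15 weeks is not drawn. *Cxcl12* is on opposite sides of 0 in the sexes at 9 weeks (0.85 and -1.04) with neither filled, and in males it is filled at 15 weeks.

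At 15 weeks *Cxcl9* was the DEG in females (3.48 ± 0.71, adjusted p = 0.042; of all genes tested 0.0984% were DEGs, 0.0861% higher and 0.0123% lower), a call kept in 3 of 10 fits that left out 1 library, those without vehicle replicate 2 or 15-week replicate 1 or 4 (adjusted p 0.00851 to 0.179). In males *Cxcl9* was higher (4.11 ± 0.74, adjusted p = 0.00127) and *Cxcl12* lower (-2.36 ± 0.58, adjusted p = 0.00978), where 8.92% of all genes tested were DEGs, 4.37% higher and 4.55% lower, and both calls were kept in 10 of 10 such fits. Both were also free of overlap in males (7.09% of all genes tested). Within single sexes 0 members were DEGs from 9 to 15 weeks with edgeR, although 7 in females and 6 in males had an unadjusted p under 0.05, and DESeq2 called 2 in females (*Cxcl2*, *Cxcl3*) and 0 in males. With edgeR no gene of the whole table was a DEG in those comparisons.

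The members' smallest p for a difference between the sexes was that of *Cxcl12*, at vehicle and in the response at both times. Its interaction with treatment was -1.90 ± 0.79 (adjusted p = 0.641) at 9 weeks and -2.01 ± 0.80 (adjusted p = 0.541) at 15 weeks, so neither passed over all genes. With edgeR 0 members and 0 genes passed any of the 3 interactions, 1 member had an unadjusted p under 0.05 in each, and DESeq2 called 0 members. *Cxcl12* started higher in vehicle-treated males, 18.3 against 5.42 CPM, with a log2 difference of 1.75 ± 0.57 (adjusted p = 0.0998) and 0.178% of all genes tested as DEGs (0.141% higher and 0.0369% lower in males). DESeq2 called it (adjusted p = 0.0344). Without female vehicle replicate 1 it was 2.22 (adjusted p = 0.021, a call), and without male vehicle replicate 1 it was 1.33 (adjusted p = 0.457). The members with an unadjusted p under 0.05 in that comparison were 4, the others being *Cxcl5* (1.23 against 0.201 CPM), *Cxcl10* (2.52 against 0.828 CPM) and *Cxcl16* (13.9 against 9.77 CPM). In the same comparison 0 of 8 mesenchyme markers were DEGs with edgeR (summed median 167.7 CPM in males and 38.9 CPM in females), and 6 of 6 smooth muscle markers were higher DEGs, which became 0 without male vehicle replicate 1. The part of these cells was not tested. Between the sexes with edgeR 0 members passed at 9 weeks, where 0.0492% of all genes tested did (0.043% higher and 0.00615% lower in males) and 0 members had an unadjusted p under 0.05. At 15 weeks 0 members passed, where 0.184% of all genes tested did (0.123% higher and 0.0615% lower in males), and 2 members had an unadjusted p under 0.05, *Cxcl5* and *Cxcl16*. DESeq2 called 0 members at both times.

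*Cxcr4*, the receptor of CXCL12, was the receptor called at 9 weeks, 4.05 against 1.73 CPM (log2 fold change 1.24 ± 0.37, adjusted p = 0.0199), while its ligand was not. *Cxcr2*, the receptor of the neutrophil attractants, was 1.45 against 0.0504 CPM (adjusted p = 6.72e-05), and *Cxcr6*, that of CXCL16, was 1.34 against 0.411 CPM (adjusted p = 0.00482), but both had a mean FPKM under 1. *Cxcr3*, that of CXCL9 and CXCL10, was 0.582 against 0.272 CPM (adjusted p = 0.0902). From 9 to 15 weeks *Cxcr4* fell (-1.24 ± 0.37, adjusted p = 0.0469), and *Cxcr2* was 0.0769 CPM at 15 weeks (adjusted p = 0.00599, mean FPKM under 1). *Ackr3*, which scavenges CXCL12, was lower with *Cxcl12* in males at 15 weeks (1.62 against 4.44 CPM, log2 fold change -1.45 ± 0.46, adjusted p = 0.0339). Vehicle-treated males were uneven for *Ackr3*, from 1.46 to 10.2 CPM with a median of 2.66 CPM. The 15-week males had 0.689 to 2.67 CPM with a median of 1.37 CPM, so the groups overlapped. This call was not repeated with a library left out. In all, 7 of 8 receptor genes were tested, and with the sexes averaged 1 was a DEG at 9 weeks, 0 at 15 weeks and 1 from 9 to 15 weeks. Of 6 other CXC ligands 3 were tested, and the call among them was *Cxcl13*, a B cell attractant, which fell from 7.21 to 2.28 CPM between 9 and 15 weeks (-1.66 ± 0.47, adjusted p = 0.0412).

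Some inducers of the neutrophil attractants were called in the same comparisons. Of 14 tested genes of NF-kB inducers and feedback, 6 were higher DEGs at 9 weeks, 3 at 15 weeks, and 5 were lower from 9 to 15 weeks. *Il1b* was 52.5 CPM at 9 weeks, 2.44 CPM at 15 weeks and 0.445 CPM with vehicle, and *Il1a* was 9.38, 0.413 and 0.0700 CPM. Libraries of 9 weeks ranged from 0.430 to 226 CPM for *Il1b* and from 0.0538 to 39.2 CPM for *Il1a*, the highest being female replicate 4, without which the means were 33.3 and 6.07 CPM. Without male vehicle replicate 1 the higher DEGs of this list at 15 weeks were 2, *Tnf* and *Zc3h12a*. *Tnf* was 14.9, 5.26 and 1.66 CPM (at 9 weeks log2 fold change 3.16 ± 0.36, adjusted p = 6.72e-07), and *Zc3h12a*, a feedback RNase that cleaves chemokine and cytokine mRNA, was 92.4, 65.0 and 45.4 CPM. Of the interferon gamma axis, which induces *Cxcl9* and *Cxcl10*, *Socs1*, a feedback inhibitor of cytokine signaling, was higher at 9 weeks (log2 fold change 2.14) and at 15 weeks (1.52), and *Irf1*, an interferon-induced transcription factor, was higher at 9 weeks (0.75). Neither was a DEG from 9 to 15 weeks, where *Cxcl9* and *Cxcl10* fell. Of 4 proteases that process these ligands *Adam10*, which sheds CXCL16, was higher at 9 weeks (0.42 ± 0.10, adjusted p = 0.00421), and *Dpp4*, which trims CXCL9, CXCL10 and CXCL12, was lower at 9 weeks (-0.51, adjusted p = 0.00244) and at 15 weeks (-0.59, adjusted p = 0.00149).

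Markers of leukocytes were called in part. Of 8 neutrophil markers 5 were tested; *S100a8*, *S100a9*, *Csf3r* and *Retnlg* were higher DEGs at 9 weeks, *S100a8* and *S100a9* at 15 weeks, and those 4 were lower from 9 to 15 weeks. *S100a9* was 14.3 CPM at 9 weeks, 1.60 at 15 weeks and 0.245 with vehicle, or 0.842 at 15 weeks without male replicate 5 and 0.0628 with vehicle without male replicate 1. With vehicle *Mmp8* and *Ngp* were at 0 in both sexes, and *S100a8* and *Camp* were at 0 in females. The list summed to 12.7 to 179 CPM with vehicle and 10.8 to 205 CPM at 9 weeks, but most of this was *Ly6g*, which was not a DEG; without it the sum was 0 to 3.25 CPM with vehicle, 0.430 to 108 CPM at 9 weeks and 0.534 to 15.5 CPM at 15 weeks. Of 8 T and NK cell markers 4 were higher DEGs at 9 weeks (*Gzmb*, 1.81; *Trbc2*, 1.45; *Cd3g*, 1.06; *Nkg7*, 1.01) and *Trbc2* at 15 weeks (0.92), and 0 from 9 to 15 weeks, with sums of 4.41 to 19.99 CPM with vehicle, 10.1 to 29.8 CPM at 9 weeks and 7.33 to 30.4 CPM at 15 weeks. Without male vehicle replicate 1 the T and NK cell DEGs were *Cd3g* and *Trbc2* at both times. Of 8 macrophage markers 1 was a higher DEG at 15 weeks (*Cd14*), 2 were lower from 9 to 15 weeks (*Csf1r* and *Cd14*) and 4 were higher at 9 weeks (*Cd14*, 1.41; *C1qb*, 1.34; *Lyz2*, 1.34; *C1qa*, 1.29), with sums of 31.9 to 202 CPM with vehicle, 77.6 to 294 CPM at 9 weeks and 49.4 to 204 CPM at 15 weeks. Without male vehicle replicate 1 the macrophage DEGs were 7 at 9 weeks and 0 at 15 weeks. The part of these cells in the levels of the ligands was not tested.

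Likeness among the members within groups was measured as Spearman's rho of the deviations from the group means of log2 CPM over the 30 libraries, given as a description, since the points share libraries and cell composition. It was 0.75 between *Cxcl1* and *Cxcl2*, 0.73 between *Cxcl1* and *Cxcl10*, 0.72 between *Cxcl2* and *Cxcl3*, 0.71 between *Cxcl2* and *Cxcl5* and 0.65 between *Cxcl2* and *Cxcl10*. It was 0.74 between *Cxcl14* and *Cxcl16*, 0.70 between *Cxcl12* and *Cxcl14* 0.63 between *Cxcl9* and *Cxcl10*, 0.56 between *Cxcl5* and *Cxcl14* and 0.55 between *Cxcl2* and *Cxcl9*. The lowest value was 0.02, between *Cxcl9* and *Cxcl12*.

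**Figure D4:**
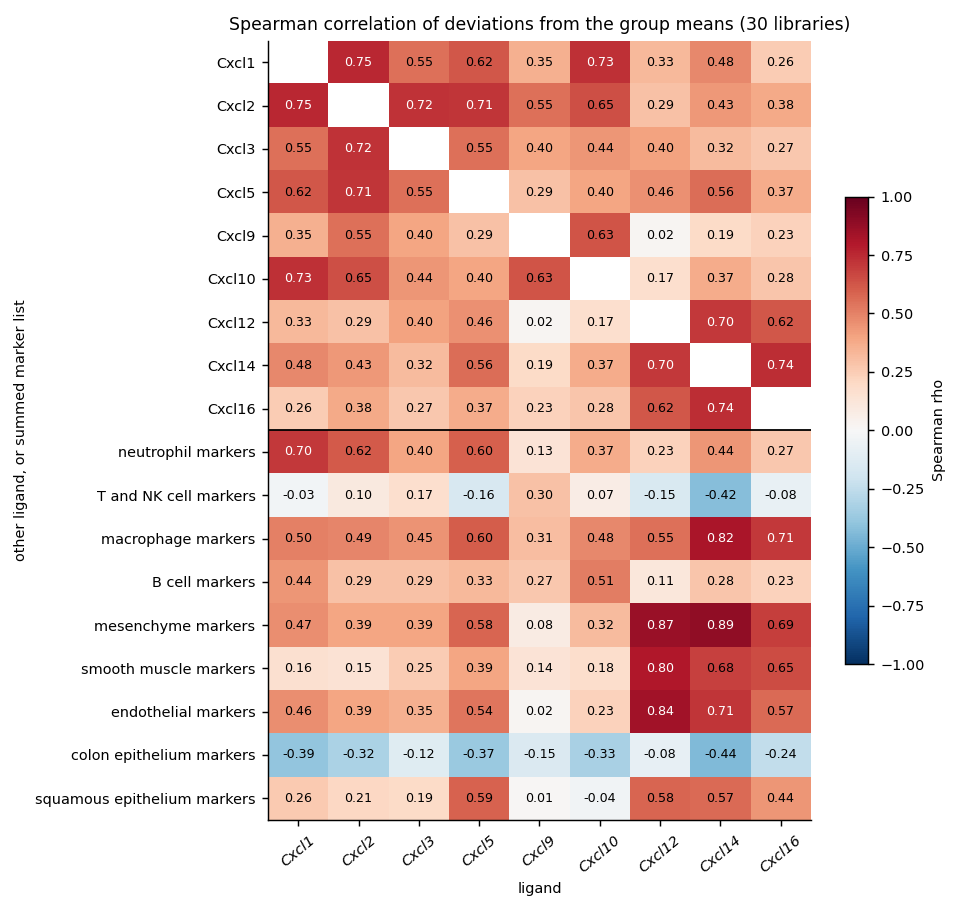
Heatmap of Spearman's rho between deviations from the group means (30 libraries). The 9 ligands are in columns, and the ligands and 9 summed marker lists are in rows. *Cxcl12* and *Cxcl14* are highest with the mesenchyme list (0.87 and 0.89), while *Cxcl9* reaches at most 0.31 with any list; the neutrophil sum is mostly *Ly6g*.

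Beside the marker sums, *Cxcl12* had a rho of 0.87 with mesenchyme, 0.84 with endothelium and 0.80 with smooth muscle, and *Cxcl14* had 0.89 with mesenchyme and 0.82 with macrophages. *Cxcl16* had 0.71 with macrophages and 0.69 with mesenchyme. With colon epithelium every member was negative, from -0.44 (*Cxcl14*) to -0.08 (*Cxcl12*), and *Cxcl5* had -0.37. *Cxcl1* had 0.70 with the neutrophil sum and 0.65 with that sum without *Ly6g*, and was the only member to fall. *Cxcl2* had 0.62 and 0.83, and *Cxcl5* had 0.60 and 0.77. *Cxcl9* had 0.30 with T and NK cells, 0.13 with the neutrophil sum and 0.57 with that sum without *Ly6g*.

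**Figure D5:**
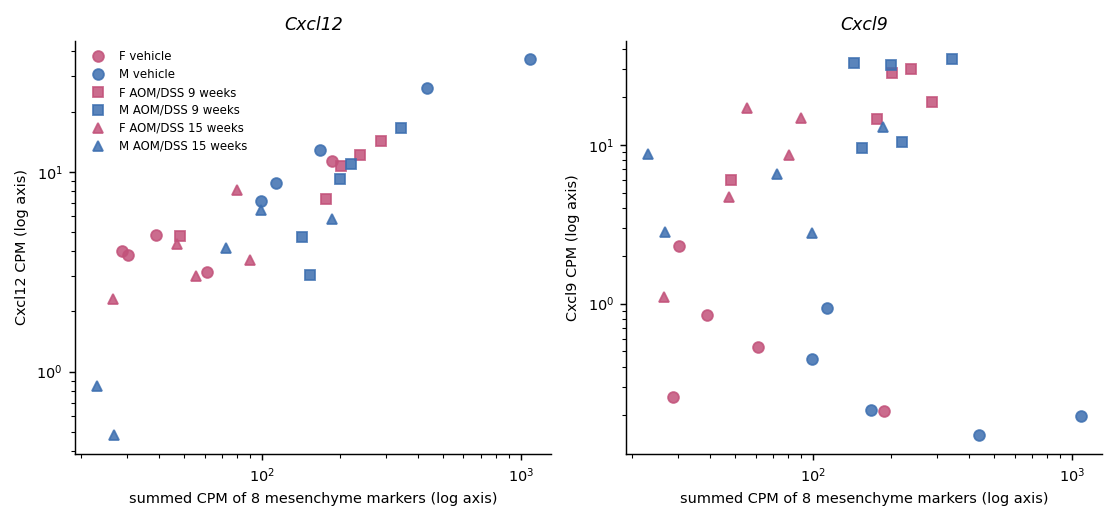
CPM of *Cxcl12* (left) and *Cxcl9* (right) against the summed CPM of 8 mesenchyme markers in the 30 libraries, both axes logarithmic and colored by group. *Cxcl12* climbs with the marker sum from 0.482 to 36.5 CPM, its highest point being male vehicle replicate 1. All 9-week points of *Cxcl9* lie above all its vehicle points, and its 15-week points overlap both.

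The single genes most like each member were sought among the 16252 tested genes outside the family, by the same measure. *Cxcl1* was most like *Osm* (0.80), *Tmem173* (0.76) and *Trem1* (0.75), and *Cxcl3* was most like *Osm* (0.70), *Zbed5* (0.69) and *Fpr2* (0.68). *Cxcl2* was most like *S100a9* (0.80), *Csf3r* (0.79) and *H2-Q5* (0.77). *Cxcl5* stood apart from these with *Aldh1a3* (0.88), *Arsi* (0.82) and *Ngfr* (0.81). *Cxcl9* was most like *H2-Q7* (0.85), *Nlrc5* (0.83) and *AW112010* (0.78), and *Cxcl10* most like *Gbp4* (0.77), *Gm17189* (0.75) and *Serpina3g* (0.74). *Cxcl12* had the highest values of all, with the matrix genes *Tnc* (0.95) and *Postn* (0.94) and with *Fat4* (0.94). *Cxcl14* was most like *Mmp2* (0.91), *Loxl2* (0.91) and *Gpx3* (0.91), and *Cxcl16* most like *P2ry14* (0.83), *Susd2* (0.80) and *Col4a2* (0.79).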

How the data were processed

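RNA of 30 colon scrapes, 5 mice in each of 6 groups taken from the labels, was sequenced by the authors. They trimmed reads with Trim Galore after bcl2fastq 2.20.0.422, mapped them to mm10 (GRCm38) with STAR and counted genes with featureCounts; these raw counts per gene were deposited, as were FPKM and TPM values from StringTie; other versions are not given in the sources used here. Each FPKM file repeated 11 to 20 gene lines, which were summed, and 6 genes missing from a file were set to 0. In each library *mt-Nd4l* took 39.2% to 58.1% of TPM, which scales down the other genes' TPM. Counts were tested with edgeR 4.0.16 (R 4.3.3), quasi-likelihood with TMM (0.832 to 1.10), all 30 libraries, 1 coefficient per group, genes kept by filterByExpr (about 0.405 CPM in 5 libraries), and Benjamini-Hochberg adjustment over the 16261 genes in each of 15 comparisons. CPM values use effective library sizes, and log2 CPM a prior count of 2. Members, lists and motifs were chosen with earlier results of these data known. Named genes were the members, up to 4 DEGs per list by size of change, the members' receptors, and the 3 genes most like each member; *Ly6g* was named after its values were seen. The procedure was tested on simulated counts. Alternatives were RLE size factors, no count filter, no FPKM or fold minimum, a replicate block, fits of the compared groups only, DESeq2 1.42.0 and leaving out each library. The loss of male vehicle replicate 1 and female 9-week replicate 5 together, of male vehicle replicate 1 for the lists, and of single libraries for count ratios was chosen after seeing the data. Counts over the interferon gamma list are not reported here.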

Additional observations from a re-analysis of the deposited data

Results flagged for a closer look

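In 50 combinations of member and group with more than 3 counts in a library, the gap of the highest or lowest library to its neighbor was compared with Dixon's critical value of 0.71 for 5 samples. Chance passes about 1 in 20 such groups, and 2 passed here. *Cxcl16* in male vehicle replicate 1 had a log2 CPM of 4.58 against a group median of 3.57 (23.8 CPM, where the other 4 vehicle-treated males had 10.7 to 12.4), in the library that also held the highest smooth muscle and squamous marker sums. *Cxcl3* in 15-week female replicate 3 had a log2 CPM of -2.05, which is 4 counts where the other 4 females had 0.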

How the results depend on the processing

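At 9 weeks with the sexes averaged the calls held under every alternative except for *Cxcl14*, whose adjusted p was 0.0553 with no filter on low counts. The number of members called from 9 to 15 weeks with the sexes averaged was 4; it was 2 with no filter on low counts, 8 with DESeq2, 9 without male vehicle replicate 1 and female 9-week replicate 5, and 2 to 9 when single libraries were left out. *Cxcl9* was lost there with RLE size factors (adjusted p = 0.0513), no filter (0.0657) and the replicate block (0.062), and *Cxcl10* with no filter (0.0612) and the block (0.0599), while *Cxcl1* was gained with the block (0.0412). At 15 weeks *Cxcl5* was lost with the block (0.0577) and with the compared groups only (0.0603), and DESeq2 added *Cxcl10* (0.0338).

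Within females at 15 weeks the count of 1 was 0 with the replicate block and with the compared groups only, and 0 to 1 when single libraries were left out. Fits of the compared groups only called 4 members instead of 7 in females at 9 weeks, where *Cxcl1*, *Cxcl2* and *Cxcl3* did not pass the filter on low counts and were not tested, and 1 instead of 2 in males at 15 weeks, where *Cxcl12* was lost (0.0899). From 9 to 15 weeks in females DESeq2 called 2 instead of 0, and single omissions gave 0 to 2. In males at 9 weeks single omissions gave 3 to 6, and *Cxcl10* was lost with the block (0.0505) and with the compared groups only (0.0567). Between vehicle-treated males and females DESeq2 called 1 (*Cxcl12*) instead of 0, and single omissions gave 0 to 1, the call coming without female vehicle replicate 1.

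The sign turned for values that had not passed the test. *Cxcl12* at 9 weeks, -0.10 with the sexes averaged, was 0.037 with the replicate block, 0.20 without male vehicle replicate 1 and female 9-week replicate 5, and -0.27 to 0.14 when single libraries were left out. At 15 weeks leaving out single libraries gave -0.71 to 0.13 for *Cxcl12* in females, -1.62 to 0.44 for *Cxcl14* in males and -0.52 to 0.51 for it with the sexes averaged, -0.26 to 1.96 for *Cxcl1* in males and, for the 4 counts of *Cxcl3* in females, a fitted -1.47 to 2.92. The cause of these shifts was not tested. Deviations of same-numbered libraries correlated at -0.58 to 0.47 (median -0.026), above 0.1 in 12 of 75 pairs. Replicate 1 libraries of the vehicle and 9-week groups gave 0.063 to 0.47 with each other, and -0.41 to 0.061 with those of 15 weeks. Libraries with different numbers were not compared, so these values cannot settle whether the numbers pair the samples.

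With vehicle, *Cxcl2* and *Cxcl3* rested on 10 and 2 counts over 10 libraries, so their changes against vehicle are ratios of counts or bounds.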
